A study of Mus musculus with 14 samples.

Results

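Fetal liver spots that were rich in C1q transcripts were compared with spots of the same sections that were poor in them. C1q is a complement protein built from the products of 3 genes, C1qa, C1qb and C1qc. The members were chosen by their C1q share, the summed unique molecular identifiers (UMIs) of these genes over all UMIs of the spot. Every in-tissue spot with at least 1000 detected genes was ranked by this share within its section, and the top 25% were called C1q-high and the bottom 25% C1q-low. This gave 337 C1q-high and 337 C1q-low spots, 674 in all, of 1345 ranked spots in 2 fetal livers 15985 spots with at least 1000 genes in the 14 sections of the series, which hold 17319 spots in tissue.

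Both livers came from wild-type C57BL/6 mice bought from the Jackson Laboratory, 1 at embryonic day 13.5 (E13.5) and 1 at E14.5, and each stage is a single section of a single liver. A further 4 livers, all at E14.5, came from a cross of mice that each carried 1 deleted copy of C1qa: 2 wild-type livers and 2 C1qa knockout livers, with 1 of each genotype from litter 2 and from litter 4. The wild-type mice bought at postnatal day 8 (P8) and at 89 weeks gave 1 bone marrow section each, in which the same contrast was drawn for comparison. Everything was measured with Visium, a slide of barcoded spots on which probes to each gene are counted, and 1 spot holds several cells.

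In the fetal liver, red cell precursors mature in erythroblastic islands, in which erythroblasts surround and adhere to a central macrophage. That macrophage takes up the nuclei that erythroblasts expel and digests them in lysosomes. Such macrophages also supply and recycle iron. C1q is made mainly by tissue macrophages and marks dying cells and debris for uptake.

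At E13.5, 123 C1q-high spots were set against 123 C1q-low spots of 491, and at E14.5, 214 against 214 of 854. The C1q genes together reached 373.6 CPM (UMIs of a gene per 1000000 UMIs of the class) in the high class and 90.1 CPM in the low class at E13.5, and 318.5 and 97.8 CPM at E14.5. These values chose the spots and are given as a description. The boundary was not a gap in the data. At E13.5 the lowest high spot held 278.753 CPM and the next spot below it 278.592 CPM, and the highest low spot held 135.511 CPM and the next above it 135.909 CPM. At E14.5 the corresponding values were 251.649 and 250.955 CPM, and 133.574 and 133.777 CPM. A high spot rested on a median of 28 C1q UMIs at E13.5 and 20 at E14.5, and a low spot on 6 and 4.5, so single spots near a boundary could have fallen on either side by counting error.

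**Figure D1:**
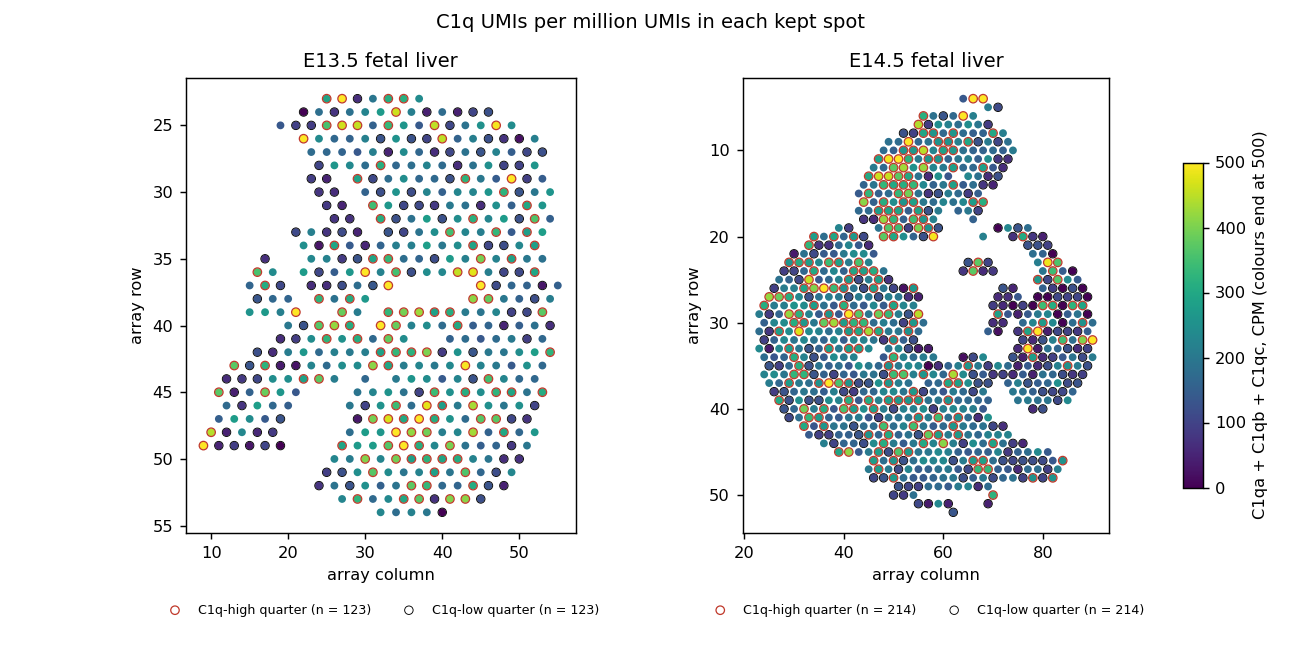
Spots of the E13.5 and E14.5 fetal liver sections by array column and row of the slide, colored by the summed C1qa, C1qb and C1qc level in CPM, with C1q-high spots outlined in red and C1q-low spots in black. Both classes are spread over each section, with 123 spots of each class at E13.5 and 214 at E14.5, and at E14.5 more of the low spots lie at the tissue edge.

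The classes differed in more than C1q. The median UMI count of a spot was 75592 in the high class and 67647 in the low class at E13.5, and 65055 and 49883.5 at E14.5. Spots with at least 1 of their 6 adjacent positions outside the tissue made up 39.0% of high and 44.7% of low spots at E13.5, and 21.5% and 47.7% at E14.5. The share of UMIs from 17 hepatocyte genes was nearly equal, with medians of 2.15% and 2.13% at E13.5 and 3.104% and 2.954% at E14.5. Of the spots adjacent to a high spot, 34.9% at E13.5 and 33.8% at E14.5 were high themselves, where 25.1% of all ranked spots were high, and 16.4% and 16.1% were low. The part of tissue edge and of depth in the differences between the classes was not tested beyond the values given with each result.

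All spots of a class were summed, the C1q genes were left out of counts and totals, and the ratio of CPM in C1q-high over C1q-low spots was taken in each section. A gene was called past the rule where it was at least 25% higher (a log2 ratio of 0.32 or more), or lower by the same log2 ratio, in both sections, among 9564 genes with at least 100 UMIs over both classes in each section. With 1 section per stage there is no replicate at a stage, and intervals on these ratios cover counting error only (95%, exact binomial). In such sums, fewer cells of a type and less RNA per cell cannot be told apart.

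By this rule 136 genes (1.42% of those measured) were higher and 98 (1.02%) were lower in C1q-high spots of both livers. The median log2 ratio of the 136 higher genes was 0.69 at E13.5 and 0.51 at E14.5, against -0.10 and -0.04 for all measured genes. Of the 136, 111 had the larger absolute log2 ratio at E13.5, as did 6368 of the 9564 measured genes. In single sections the counts were 429 higher and 793 lower genes at E13.5, and 253 and 409 at E14.5. Hemoglobin transcripts took up more of the high class, and with globins left out of the totals 166 genes were higher and 60 lower, so the higher genes made up 73.5% of those past the rule in place of 58.1%.

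**Figure D2:**
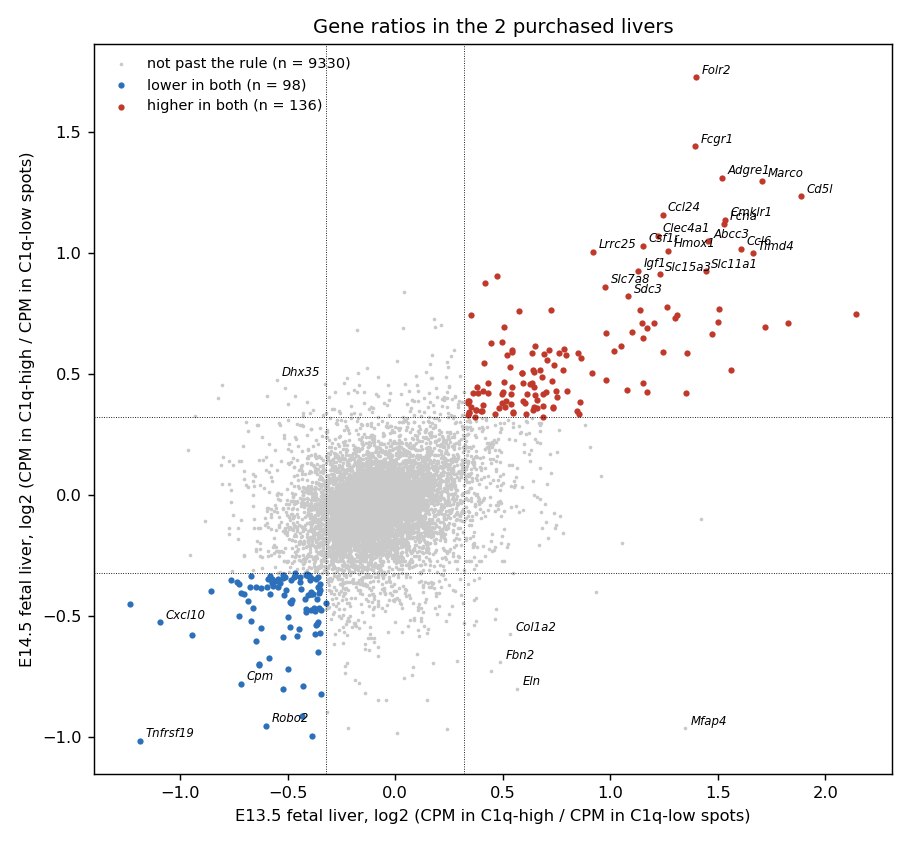
The log2 ratio of CPM in C1q-high over C1q-low spots at E13.5 (horizontal) against E14.5 (vertical), 1 point per gene for the 9564 measured genes, with the 136 higher and 98 lower genes colored. The macrophage genes Folr2, Marco and Cd5l lie in the upper right corner. Dotted lines mark the log2 ratio of 0.32 in either direction.

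Of the 20 genes farthest up in both livers 11 belong to one of the 4 macrophage lists described below, as do 31 of all 136. In any list are 45 of the 136. Among all 9564 measured genes 56 are in the macrophage lists and 269 in any list. Folr2, a folate receptor of tissue-resident macrophages, stood at 9.61 CPM in high and 3.64 CPM in low spots at E13.5 and at 10.4 and 3.15 CPM at E14.5. Its log2 ratio was 1.40 (interval 0.81 to 2.02) and 1.73 (1.19 to 2.30). Fcgr1, a high-affinity receptor for antibody, had 10.4 and 3.97 CPM at E13.5 and 7.60 and 2.80 CPM at E14.5, log2 ratios of 1.40 and 1.44. Adgre1, which encodes the macrophage antigen F4/80, had 11.1 and 3.86 CPM, then 8.69 and 3.50 CPM, log2 ratios of 1.52 and 1.31. For each of these genes the low class was counted with 32 to 40 UMIs over all its spots, and the high class held 92 to 144.

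Scavenger receptors and secreted macrophage proteins were the best counted of the group. Marco, a scavenger receptor, had 115 CPM (1103 UMIs) in high and 35.3 CPM (320 UMIs) in low spots at E13.5, and 148 CPM (2043 UMIs) and 60.0 CPM (687 UMIs) at E14.5. Cd5l, a secreted protein of tissue macrophages that holds back their apoptosis, had 170 and 46.0 CPM at E13.5 and 187 and 79.6 CPM at E14.5. Its log2 ratio was 1.89 (1.73 to 2.04) at E13.5 and 1.24 (1.13 to 1.35) at E14.5. In these genes the intervals of the high and the low class are far apart in both sections. Fcna, a ficolin that starts the lectin pathway of complement, had 73.3 and 25.4 CPM at E13.5 and 72.1 and 33.1 CPM at E14.5.

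The rest of the first 20 genes comprised the chemokines Ccl24 and Ccl6, the chemerin receptor Cmklr1, the lectin receptor Clec4a1, the efflux pump Abcc3, Csf1r (the receptor for the macrophage growth factor), the phosphatidylserine receptor Timd4, the growth factor Igf1, the transporters Slc11a1, Slc15a3 and Slc7a8, the syndecan Sdc3, Lrrc25 and Hmox1. Csf1r had log2 ratios of 1.15 and 1.03, Timd4 of 1.66 and 1.00, and Ccl24 of 1.24 and 1.16. Hmox1, the oxygenase that opens the heme ring, had 136 CPM (1301 UMIs) and 56.4 CPM (511 UMIs) at E13.5 and 121 CPM (1671 UMIs) and 60.0 CPM (687 UMIs) at E14.5, log2 ratios of 1.27 (1.12 to 1.42) and 1.01 (0.88 to 1.14). The smaller of the 2 ratios, by which the 20 were ranked, ran from 1.40 for Folr2 to 0.82 for Sdc3.

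The promoters of 4 of these genes are shown because the genes moved together and because macrophage genes are commonly bound by the factor PU.1, whose core is GAGGAA. Each line holds the 250 bases before the annotated start, 5′ to 3′ on the strand of the gene, in lower case. GAGGAA or its reverse complement TTCCTC is in capitals (RefSeq, GRCm38.p6). Folr2 lies at chr7:101857191-101857440 (minus strand, first of its 2 listed starts), Fcgr1 at chr3:96293970-96294219 (minus), Marco at chr1:120505025-120505274 (minus) and Cd5l at chr3:87357631-87357880 (plus).
Folr2: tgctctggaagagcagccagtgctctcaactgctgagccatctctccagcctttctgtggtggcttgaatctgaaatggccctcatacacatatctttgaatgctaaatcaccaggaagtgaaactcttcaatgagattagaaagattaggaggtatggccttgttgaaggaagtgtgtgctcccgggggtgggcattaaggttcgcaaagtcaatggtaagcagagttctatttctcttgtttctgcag
Fcgr1: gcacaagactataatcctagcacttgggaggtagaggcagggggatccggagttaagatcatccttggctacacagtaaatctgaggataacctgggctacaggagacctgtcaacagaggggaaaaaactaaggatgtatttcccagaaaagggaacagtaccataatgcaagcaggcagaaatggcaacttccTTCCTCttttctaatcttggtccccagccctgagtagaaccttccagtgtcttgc
Marco: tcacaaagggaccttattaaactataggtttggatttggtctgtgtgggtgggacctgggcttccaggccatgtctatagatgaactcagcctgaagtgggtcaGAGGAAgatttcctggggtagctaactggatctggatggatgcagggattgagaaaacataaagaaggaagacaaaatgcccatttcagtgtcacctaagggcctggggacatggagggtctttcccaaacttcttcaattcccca
Cd5l: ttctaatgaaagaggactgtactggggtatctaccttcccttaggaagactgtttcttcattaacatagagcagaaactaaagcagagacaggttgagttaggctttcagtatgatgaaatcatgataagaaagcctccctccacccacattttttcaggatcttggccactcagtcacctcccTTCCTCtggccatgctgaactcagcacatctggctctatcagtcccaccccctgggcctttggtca

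The match lies 55 bases before the start in Fcgr1, 146 in Marco and 66 in Cd5l. The Folr2 window holds no match to these exact letters, and other forms of the site were not searched. Over both strands the letters were found in 35 of the 99 higher genes with a listed promoter (35.4%), in 12 of 82 lower genes (14.6%), in 1692 of 7686 measured genes (22.01%) and in 6252 of 27025 promoters of the same length (23.1%). Of the first 20 genes, 9 of 13 with a listed promoter held a match (69.2%). These shares describe letters in a window, and binding of a factor was not measured.

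The island macrophage list holds 16 genes known from the macrophages of erythroblastic islands. It had 13 measured genes, of which 8 were past the rule as higher and none as lower, with median log2 ratios of 0.59 and 0.51 (all measured genes, -0.10 and -0.04). Besides Adgre1, Timd4, Hmox1 and Igf1 these were Spic, a transcription factor of heme-recycling macrophages, Slc40a1, the iron exporter ferroportin, Nr1h3, the liver X receptor alpha, and Mertk, a receptor for dying cells. Every spot was also thinned to 10000 UMIs, which leaves fewer UMIs per gene, and the classes were redrawn by the thinned C1q share. None of the 13 was then past the rule, and the medians were 0.40 and 0.23. Spic had 12.5 and 3.53 CPM at E13.5 and 13.8 and 8.39 CPM at E14.5, log2 ratios of 1.83 and 0.71. Slc40a1 had 107 and 61.6 CPM, then 109 and 73.0 CPM, log2 ratios of 0.79 and 0.58. Nr1h3 reached 0.59 and 0.51 and Mertk 0.55 and 0.34.

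The other 5 measured island genes did not pass the rule. The transcription factor Maf had log2 ratios of 0.47 and 0.22, the nuclease Dnase2a, which digests expelled nuclei, 0.44 and 0.18, the adhesion molecule Vcam1 0.24 and 0.15, and transferrin (Trf) 0.19 and 0.06. Epor, the erythropoietin receptor, had 82.9 and 85.1 CPM at E13.5 and 89.6 and 84.7 CPM at E14.5, log2 ratios of -0.04 and 0.08. Siglec1, Cd163 and Il18 were below the UMI minimum, and Cd163 had no UMI in either class at E13.5 and 3 and 4 UMIs at E14.5. Adhesion molecules of the island as a group did not separate the classes: of 15 measured genes none passed the rule, and the medians were -0.04 and 0.01 (0.03 and 0.03 with globins left out of the totals).

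**Figure D3:**
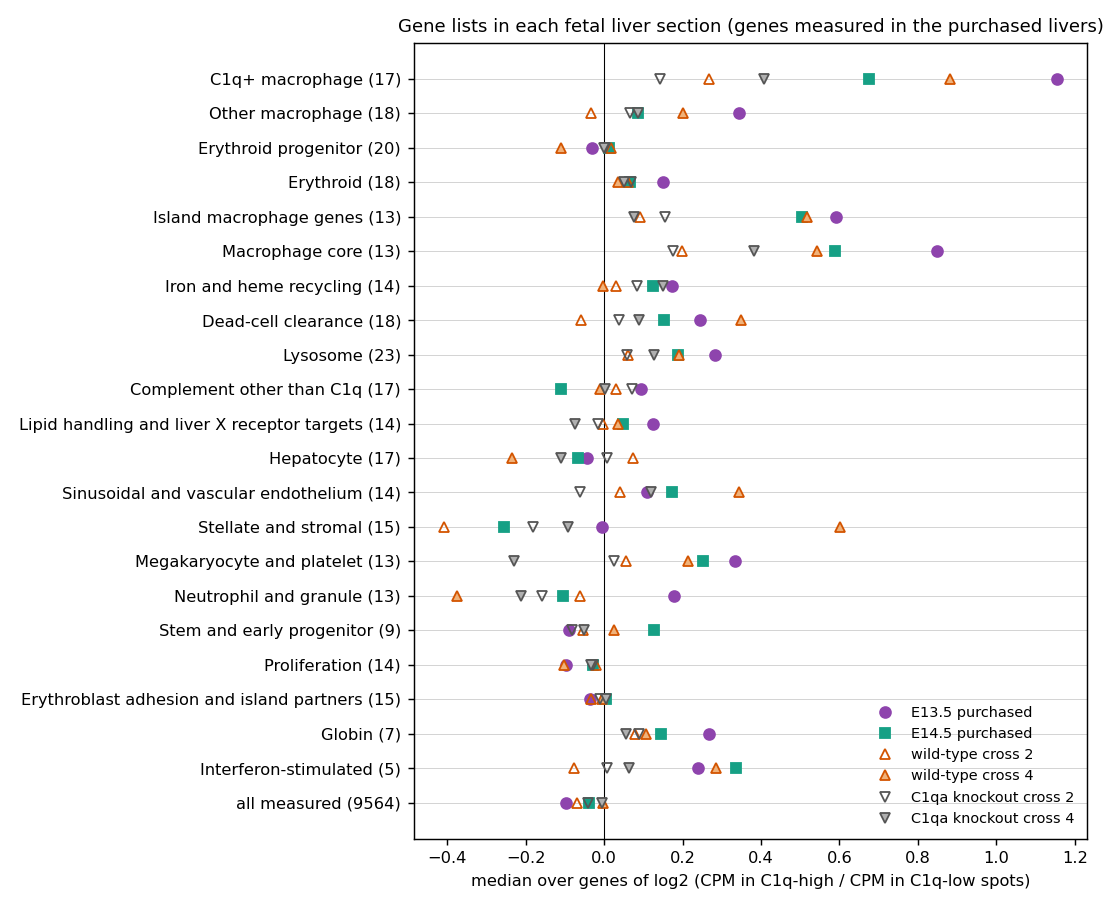
Median log2 ratio of C1q-high over C1q-low spots for each gene list in the E13.5 (circles) and E14.5 (squares) livers and in the 4 cross livers (orange triangles wild type, grey triangles C1qa knockout, hollow litter 2, filled litter 4), with the number of genes in brackets. The C1q+ macrophage, general macrophage (core) and island macrophage lists lie farthest to the right in both purchased livers, with 1.15 and 0.68 for the C1q+ macrophage list. The list of other macrophages had 0.34 and 0.09, and at E14.5 it lies among the lists of other cells.

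Macrophage genes as groups were higher in the C1q-high class, by different amounts. The C1q+ macrophage list consists of the study's first marker genes for that cell type, without the C1q genes, and 13 of its 17 measured genes were higher, with medians of 1.15 and 0.68. General macrophage genes (Csf1r, Cd68, Fcgr1 and others) were higher in 11 of 13, with medians of 0.85 and 0.59. The study's markers of other macrophages were higher in 4 of 18, with medians of 0.34 and 0.09, the 4 being Lgals3 (1.31 and 0.75), Ctss (0.85 and 0.59), Tyrobp (0.72 and 0.60) and Ms4a6c (0.41 and 0.55). None of the genes in these 3 lists was past the rule in the other direction. In spots thinned to 10000 UMIs 3 of 17, 1 of 13 and 0 of 18 were past it, with medians of 0.51 and 0.23, 0.43 and 0.28, and 0.25 and 0.15.

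Genes for lysosomes, for iron and heme recycling and for dead-cell clearance were higher in part. In the lysosome list 5 of 23 genes were higher (medians 0.28 and 0.19), among them the proteases Lgmn (1.15 and 0.65) and Ctss, Cd68 (1.15 and 0.71) and Grn, the precursor of granulins (0.70 and 0.43). In the iron and heme list 4 of 14 were higher (0.17 and 0.12): Spic, Slc11a1, an iron transporter of the phagosome (1.44 and 0.93), Hmox1 and Slc40a1. In the dead-cell clearance list 4 of 18 were higher (0.25 and 0.15): Timd4, Mertk, the related receptor Axl (0.54 and 0.59) and Elmo1, which acts in engulfment (0.38 and 0.45). For Elmo1 the counting interval at E13.5 ran from -0.08 to 0.85 and so included 0.

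Complement beyond C1q did not move as 1 group. Of 17 measured genes only Fcna and Cfp were past the rule, and the medians were 0.09 and -0.11. Cfp, which encodes properdin and stabilizes the alternative pathway convertase, had 70.2 and 29.2 CPM at E13.5 and 57.2 and 33.4 CPM at E14.5, log2 ratios of 1.26 and 0.78. C1s1, a protease that C1q activates, had -0.51 and -0.07, and the terminal component C8a -0.18 and -0.36. In the lipid list 3 of 14 were higher (0.13 and 0.05), namely Nr1h3, its target Abcg1 (0.75 and 0.43) and the phospholipid transfer protein Pltp (1.36 and 0.59), while Fabp4 had 0.24 and 0.43.

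Erythroid transcripts, the partners of the macrophage, differed little. None of the 20 erythroid progenitor genes was past the rule, with medians of -0.03 and 0.01 that became 0.03 and 0.04 with globins left out of the totals. Of the 20, 8 were above 0 and 6 below 0 in both livers. The members with the ratios farthest from 0 were below it: the transcription factor Klf1 had -0.11 in both livers, Asns -0.30 and -0.11, Pla2g12a -0.29 and -0.17, and Tmem14c -0.12 and -0.11. The well-counted carbonic anhydrase gene Car2, named after its values were seen, had 0.09 and 0.06. None of the 18 measured later erythroid genes was past the rule either, yet their medians were 0.15 and 0.07, and 16 of 18 were above 0 in both livers. Alas2, the first enzyme of erythroid heme synthesis, had 1110 and 936 CPM at E13.5 and 1190 and 1095 CPM at E14.5, log2 ratios of 0.25 and 0.12.

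The globins, the most abundant of these transcripts, were all slightly above 0. Hbb-bs, an adult beta globin, made up 131480 CPM of the high and 109874 CPM of the low class at E13.5, and 134855 and 125858 CPM at E14.5, log2 ratios of 0.26 and 0.10. All 7 measured globins were above 0 in both livers, with medians of 0.27 and 0.14, and 1 of them, the embryonic beta-like globin Hbb-y, was past the rule with 217 and 130 CPM at E13.5 and 51.0 and 39.7 CPM at E14.5. The embryonic alpha-like globin Hba-x had 0.49 and 0.30, Hbb-bh1 0.14 and 0.27 and Hbq1b 0.26 and 0.14. In spots with all 6 adjacent positions in tissue the globin medians were 0.13 and 0.03, those of the later erythroid genes were 0.07 and 0.02, and Hbb-y no longer passed the rule.

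**Figure D4:**
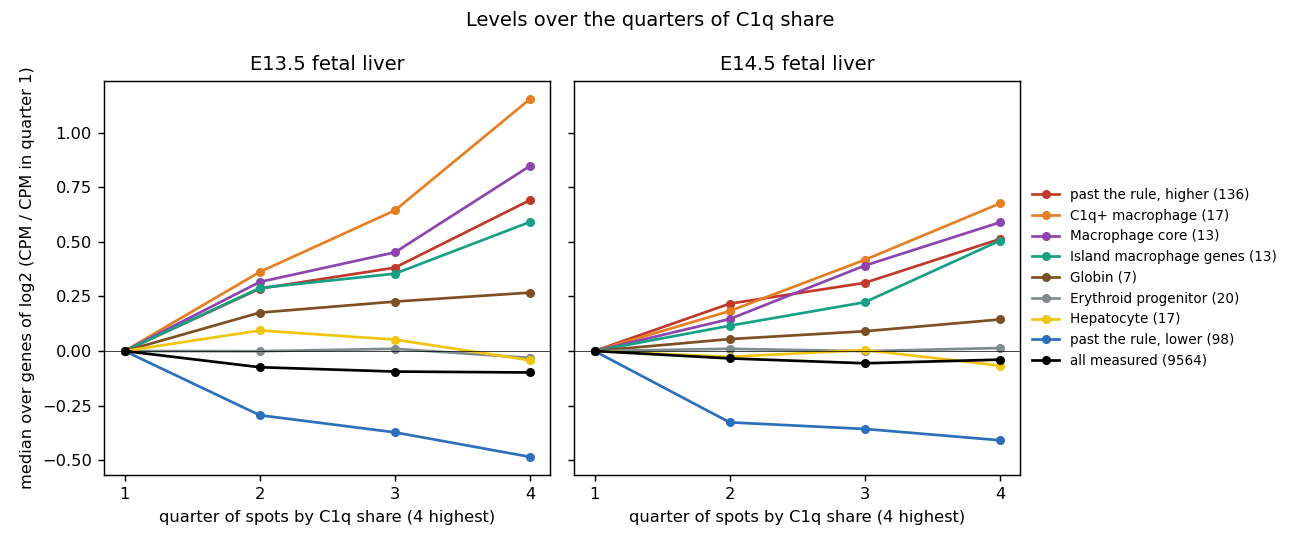
Levels over 4 equal groups of spots ranked by C1q share, from the lowest (1) to the highest (4), in the E13.5 and E14.5 livers, as the median over the genes of a list of log2 CPM over CPM in group 1. The 136 higher genes step up to medians of 0.69 and 0.51 in group 4, and they are genes chosen by the difference between groups 4 and 1.

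Each section was also split into 4 equal groups of spots by C1q share, and groups 2 and 3, between the chosen classes, were not used by the rule. The median of the 136 higher genes, over group 1, was 0.29 in group 2 and 0.38 in group 3 at E13.5, and 0.22 and 0.31 at E14.5. These genes were chosen by groups 4 and 1, so the values in between are a description. Cd5l went from 46.0 through 80.6 and 121 to 170 CPM at E13.5 and from 79.6 through 118 and 137 to 187 CPM at E14.5. Folr2 went from 3.64 through 4.73 and 7.90 to 9.61 CPM, and from 3.15 through 4.90 and 5.71 to 10.4 CPM. Hbb-bs reached 138122 CPM in group 3 at E14.5, above the 134855 CPM of group 4.

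Markers of the other cells of the liver were read whole. None of 17 hepatocyte genes was past the rule, with medians of -0.04 and -0.07 (0.02 and -0.04 with globins left out of the totals), where Hnf4a, the main hepatocyte transcription factor, had -0.35 and -0.24, Serpina6 -0.27 and -0.24, Apob -0.22 and -0.18 and Rbp4 -0.20 and -0.14. These were the ratios farthest from 0 in the list. At E13.5 8 of the 17 were above 0, 3 were above 0 in both livers and 9 below 0 in both, and albumin (Alb, named after its values were seen) had 9827 and 8926 CPM at E13.5 and 15249 and 15232 CPM at E14.5. Of 14 endothelial genes only Mrc1 was higher (0.37 and 0.35), with medians of 0.11 and 0.17. Mrc1 is shared with macrophages, and the endothelial cadherin Cdh5 had 0.28 and 0.41, Pecam1 0.35 and 0.28 and Lyve1 0.31 and 0.25. Of 15 stellate and stromal genes the contractile genes Tagln (1.15 and 0.46) and Acta2 (1.17 and 0.43) were higher, while Reln had -0.42 and -0.27 and Pdgfra -0.37 and -0.25, and the medians were -0.01 and -0.25 (0.06 and -0.23 with globins left out).

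Megakaryocyte genes were in part higher in the high class. Of 13 measured genes 4 were, with medians of 0.33 and 0.25, among them the platelet receptor Clec1b (0.52 and 0.58), Treml1 (0.48 and 0.36) and von Willebrand factor (Vwf, 0.41 and 0.43). The count depended on how the classes were drawn: 1 gene of the list was past the rule in spots with all adjacent positions in tissue (medians 0.23 and 0.09), and likewise within UMI groups, within hepatocyte groups, with the top and bottom 33% of spots or with C1qb and C1qc alone. None was past the rule with C1qa alone, in thinned spots, where fewer genes reached the UMI minimum, or when the share of a spot was taken minus that of its adjacent spots.

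No neutrophil gene of 13 was past the rule, with medians of 0.18 and -0.11; Ltf had 0.70 and -0.04, Camp 0.30 and -0.10, Lcn2 0.28 and 0.04 and Ms4a3 0.06 and -0.32. Of the stem and progenitor list 1 of 9 was higher (medians -0.09 and 0.13), while Cd48 had 0.03 and 0.42, Hlf -0.27 and -0.01 and Myb -0.22 and -0.02. In the mast cell and B lymphoid lists 1 gene each reached the UMI minimum, Hdc (-0.00 and -0.40) and Cd79b (0.27 and 0.60). None of 14 proliferation genes was past the rule (-0.10 and -0.03), with Top2a at -0.11 and -0.08, Plk1 at -0.10 and -0.13, Tyms at -0.12 and -0.15 and Aurkb at 0.03 and -0.29. Of 5 measured interferon-stimulated genes Isg15 was higher (0.35 and 0.75), and the medians were 0.24 and 0.34, with Irf7 at 0.24 and 0.55, Bst2 at 0.47 and 0.16 and Usp18 at -0.20 and 0.34. Among the island adhesion genes Cd44 had 0.35 and 0.20, the erythroblast macrophage protein Maea -0.22 and -0.16 and Ephb4 -0.11 and -0.10.

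Few measured genes are in any list (269 of 9564), and none of the 98 genes lower in C1q-high spots was. The 98 had medians of -0.48 and -0.41. The most negative by the smaller ratio were Tnfrsf19, Cpm, Gata6, B4galt2, Robo2, Il1r1, Depdc7, Epb41l4b, Fgd1 and Cxcl10. Tnfrsf19, a receptor of the tumor necrosis factor family, had 38 and 82 UMIs at E13.5 and 55 and 92 at E14.5, log2 ratios of -1.19 (-1.78 to -0.62) and -1.01 (-1.52 to -0.52). The transcription factor Gata6 had log2 ratios of -0.63 and -0.70, the axon guidance receptor Robo2 -0.60 and -0.95, the interleukin-1 receptor Il1r1 -0.65 and -0.60 and the chemokine Cxcl10 -1.09 and -0.52. Among spots with all adjacent positions in tissue 15 of the 98 were past the rule, with medians of -0.44 and -0.25 and 90 of 98 below 0 in both livers. Of the 98, 40 were past the rule with classes drawn within groups of equal UMI count, 9 with the share of adjacent spots taken off, 27 with C1qa alone and 2 in thinned spots. Of the 136 higher genes 79, 105, 73, 66 and 7 were past the rule under these 5 alternatives. In thinned spots 5326 genes reached the UMI minimum, and members below it could not pass.

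A group of 31 genes passed this ratio in opposite directions, 16 higher at E13.5 and lower at E14.5 and 15 the other way. The first by size were matrix genes. Mfap4, a microfibril protein, had 19.95 and 7.83 CPM at E13.5 and 3.77 and 7.34 CPM at E14.5, log2 ratios of 1.35 and -0.96. Elastin (Eln) had 0.57 and -0.80, the collagen gene Col1a2 0.53 and -0.57, Fbn2 0.49 and -0.69 and the helicase gene Dhx35 -0.55 and 0.48. With 1 section per stage, stage and section cannot be told apart.

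Whether the difference was shared by the purchased livers beyond their spread was asked with edgeR's quasi-likelihood test on the 4 class sums, with section as a block. At an adjusted p under 0.05, 424 of 12182 genes (3.48%) rose and 122 (1.0%) fell. Since the ratios of the same spots chose the 136 and 98 genes, no p is given for them. The lists hold 45 of the 136, so the calls by list partly repeat those ratios and are a description. By list, the test called higher 16 of 17 C1q+ macrophage genes, 14 of 17 general macrophage genes, 13 of 14 island genes, 13 of 23 lysosome genes, 10 of 18 other macrophage genes, 9 of 15 iron and heme genes, 9 of 20 clearance genes and 5 of 24 complement genes, and none lower. It called higher 13 of 18 later erythroid genes, 7 of 8 globins and 10 of 14 megakaryocyte genes, and 2 of 20 erythroid progenitor genes with 1 lower. In the other lists the calls were 5 higher and 1 lower of 16 lipid genes, 3 and 2 of 17 hepatocyte genes, 3 and 0 of 18 endothelial genes, 3 and 1 of 18 stromal genes, 2 and 0 of 15 adhesion genes, 2 and 0 of 10 interferon-stimulated genes and 1 and 0 of 13 stem and progenitor genes. No neutrophil, mast cell, B lymphoid or proliferation gene was called. This test has 1 residual degree of freedom and depends on the method, since DESeq2 called 33 genes higher and none lower.

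The 4 cross livers were not used by the rule and served as independent sections. C1qa had 1939 and 1023 UMIs in the wild-type livers of litters 2 and 4, and 1 UMI in each knockout liver, as the labels say. Spots were classed here by C1qb and C1qc alone, and a spot was kept only where hepatocyte genes made up 0.5% or more of its UMIs, which left 2190 and 244 spots of the wild-type and 2076 and 378 spots of the knockout livers. The classes rested on few C1q UMIs: the median high spot held 4 and 9 in the wild type and 2 and 4 in the knockout, and the median low spot 0 and 1, then 0 and 0. In the knockout liver of litter 2 all 715 low spots had no C1qb or C1qc UMI, which gave more low than high spots (519).

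The wild-type liver of litter 4 stood apart. Only 244 of its 806 ranked spots passed the hepatocyte filter, and Hbb-y had 8151 and 5002 CPM in its high and low spots, against 227 and 165 CPM in the knockout of the same litter, 21.8 and 19.4 CPM in the wild type of litter 2 and 61.5 and 54.6 CPM in the knockout of litter 2. Markers of other cells also moved with its classes, with medians of 0.60 for stromal and 0.34 for endothelial genes, against -0.41 and 0.04 in the wild type of litter 2. Their part in its results was not tested, and calls are also given without this liver.

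Of the 136 higher genes 131 were tested in the cross livers, and 114 of these (87.0%) were above 0, beside 46.6% of 9179 tested genes among all measured ones. Their median log2 change by edgeR was 0.25, and that of the measured genes -0.01. By section the medians were 0.13 and 0.48 in the wild-type livers of litters 2 and 4 and 0.12 and 0.25 in the knockout livers, beside -0.07, 0.00, -0.04 and 0.00 for the measured genes. In all 4 sections 52 of 131 were above 0 (39.7%), beside 4.64% of measured genes. The median was above 0 in both genotypes and in each section below that of the purchased livers. Of the 98 lower genes 95 were tested, 43 (45.3%) were above 0, and the median was -0.01. They were below 0 in all 4 sections in 12.6% of cases, beside 11.9% of measured genes, and 8 of 95 (8.42%) were lower at an unadjusted p under 0.05 by edgeR, beside 3.45%.

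In edgeR's quasi-likelihood test over the 8 class sums, with section as a block, 12 of 16364 genes (0.0733%) rose and 0 (0.0%) fell at an adjusted p under 0.05. At an unadjusted p under 0.05 there were 519 higher and 386 lower genes, and DESeq2 called 4 genes higher (Hbb-y, Fcna, Lgmn and Hba-x) and 0 lower. Of the 12 genes 9 were among the 136, and 52 of 131 members (39.7%) were higher at an unadjusted p, beside 3.27% of measured genes. Without the wild-type liver of litter 4 the test called 31 genes higher and 17 lower, with 13 members among the higher. Of the members 5 were called without the knockout liver of litter 2, 1 without that of litter 4, and 0 with spots thinned to 2000 UMIs, with all spots or with the share of adjacent spots taken off.

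**Figure D5:**
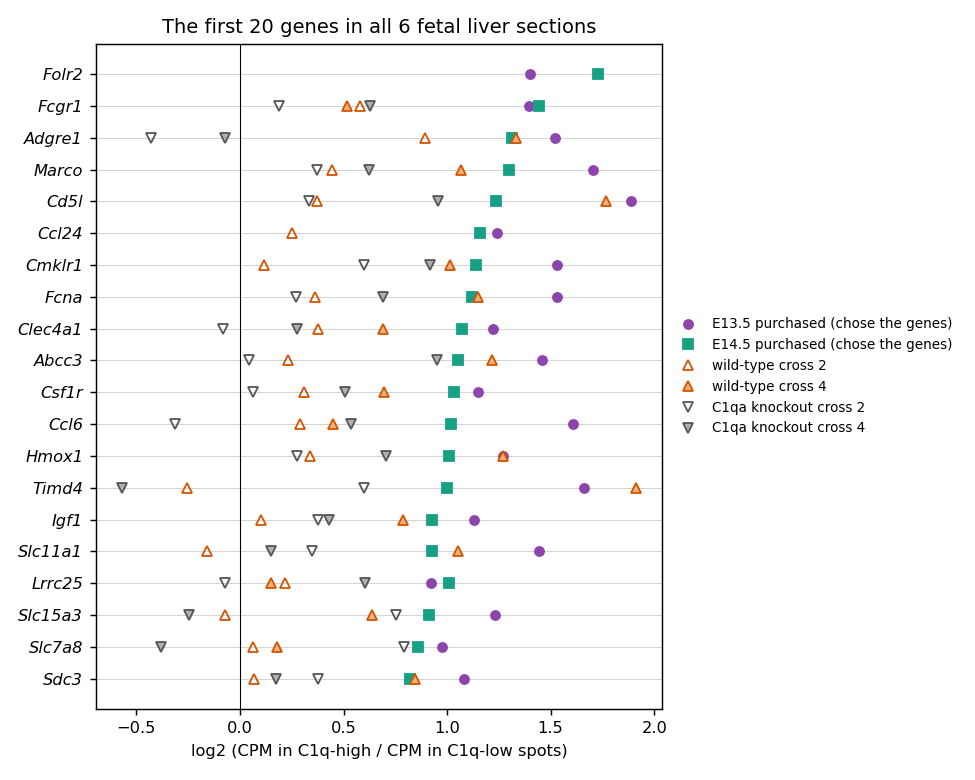
The log2 ratio of C1q-high over C1q-low spots in each of the 4 cross livers for the first 20 genes (orange triangles wild type, grey triangles C1qa knockout, hollow litter 2, filled litter 4), beside the E13.5 (circles) and E14.5 (squares) ratios that chose them. Hmox1, Marco, Fcna and Cd5l lie above 0 in all 4 cross livers, with the wild type of litter 4 the highest for each.

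Hmox1 had 423 and 335 CPM in high and low spots of the wild type of litter 2, 308 and 128 CPM in litter 4, 470 and 388 CPM in the knockout of litter 2 and 390 and 239 CPM in litter 4. It rose by 0.63 ± 0.08 on the log2 scale (SE, edgeR, adjusted p = 0.000145), in 4 of 4 livers. Over 18 alternatives its adjusted p ran from 5.51e-20 to 1.00, and 12 of them called it. Marco had 140.5 and 103 CPM, then 26.7 and 12.7 CPM in the wild type, and 126 and 97.0 CPM, then 21.9 and 14.2 CPM in the knockout. It rose by 0.54 ± 0.08 (edgeR, adjusted p = 0.000361), and 13 of 18 alternatives called it.

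Lgmn rose by 0.55 and Fcna by 0.55 (edgeR, adjusted p = 0.000361 each), both above 0 in 4 of 4 livers and called in 13 of 18 alternatives. Cd5l, with 264 and 204 CPM and 39.2 and 11.5 CPM in the wild type and 220 and 175 CPM and 30.2 and 15.5 CPM in the knockout, rose by 0.57 ± 0.09 (edgeR, adjusted p = 0.00255). It was higher in 4 of 4 livers, and 9 of 18 alternatives called it. Ctss rose by 0.54 (0.0161), Slc40a1 by 0.30 (0.0307) and the endocytic adaptor Dab2 by 0.40 (0.0465, all edgeR, adjusted p), in 4, 4 and 3 of 4 livers, and they were called in 7, 6 and 6 of 18 alternatives.

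The embryonic globins Hbb-y and Hba-x rose by 0.51 and 0.46 (edgeR, adjusted p = 0.000213 and 0.000361), in 4 of 4 livers each, and 11 and 10 of 18 alternatives called them. Over these alternatives the log2 change ran from -0.16 to 0.67 for Hbb-y and from -0.05 to 0.65 for Hba-x, so its sign was not constant. Without the wild-type liver of litter 4 the adjusted p was 0.000406 for Hbb-y and 0.0658 for Hba-x. Col2a1, a cartilage collagen, and Pax1, a transcription factor of the vertebral column, were called with 1.99 and 2.24 (edgeR, adjusted p = 0.00775 and 0.0113). Both calls were lost without that liver, with an adjusted p of 0.991 and 0.891, and both genes were below the UMI minimum in the purchased livers. Over the alternatives the log2 change of Col2a1 ran from -1.80 to 3.27.

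Of the first 20 genes only Marco, Cd5l, Fcna and Hmox1 passed in the cross. Csf1r had 0.31 and 0.69 in the wild-type livers of litters 2 and 4 and 0.06 and 0.51 in the knockout (0.39 ± 0.08, edgeR, adjusted p = 0.0868), and Igf1 0.10, 0.79, 0.38 and 0.43 (adjusted p = 0.0889). Fcgr1 had 0.58, 0.52, 0.19 and 0.63 (edgeR, adjusted p = 0.653), above 0 in every liver. Adgre1 was above 0 in the wild type, at 0.89 and 1.33, and below it in the knockout, at -0.43 and -0.07, and Timd4 had -0.26, 1.91, 0.60 and -0.57. A difference between the genotypes was not tested here. Folr2 and Ccl24 were not tested in the cross.

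By list, 7 of 16 C1q+ macrophage genes were called higher in the cross (median 0.38, 16 of 16 above 0), with section medians of 0.27 and 0.88 in the wild type and 0.14 and 0.41 in the knockout. Of the island genes 2 of 16 were called (median 0.22, 14 above 0), of the lysosome genes 2 of 23 (0.11, 20 above 0), of the iron and heme genes 2 of 15 (0.12), of the complement genes 1 of 25 (0.06), of the other macrophage genes 1 of 19 (0.11) and of the globins 2 of 8 (0.09). General macrophage genes had a median of 0.25, with 13 of 16 above 0 and none called. The later erythroid genes had 0.07 and the erythroid progenitor genes 0.00, with none called in either list.

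Bone marrow gave the same contrast in another organ. All in-tissue spots with at least 1000 genes were ranked there, and none were left out as tissue beside the marrow. In the P8 section 272 high spots with 432 C1q CPM were set against 272 low spots with 18.04 CPM, and in the 89-week section 233 high spots with 413 CPM against 306 spots with no C1q UMI. Of the 136 fetal liver genes 104 were measured at P8 and 65 (62.5%) were at least 25% higher there, beside 30.9% of all 8223 measured genes. At 89 weeks 14 of 72 (19.4%) were, beside 7.24% of 5289. The P8 classes differed widely in composition, with Hbb-bs at a log2 ratio of 2.09 and Alas2 at 2.06, where at 89 weeks these were 0.01 and -0.09. The median spot at P8 had 4646 genes in the high and 3076.5 in the low class. The part of tissue beside the marrow in these classes was not tested. Hmox1 had log2 ratios of 1.15 at P8 and 0.47 at 89 weeks, Fcna 2.32 and 0.35, Slc40a1 1.15 and 0.04 and Ctss 1.17 and 0.42. Csf1r stood at 0.06 and 0.28 and Lgmn at -0.01 and 0.36, close to 0 at P8 and slightly above at 89 weeks, where the fetal livers had 1.15 and 1.03 for Csf1r and 1.15 and 0.65 for Lgmn. These values are set side by side with no test, and depth and organ differ between the sections.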

How the data were processed

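The authors placed formalin-fixed sections on Visium slides, hybridized gene probes, and made one table of UMI counts per gene and spot for each section with Space Ranger on mm10. Per the file headers the purchased fetal livers were written by Cell Ranger 4 and the cross livers by spaceranger 4.0.1, and the 2 kinds were never put in one test. The deposited counts were used unnormalized, and the deposited tissue position tables gave whether a spot is in tissue and where. Barcodes mark slide positions, so the 296 barcodes shared by the ranked E13.5 and E14.5 spots are not shared cells. Depth in tissue was 38333002 UMIs at E13.5, 56182915 at E14.5 and 11618075 to 39595661 in the cross livers.

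Spots with at least 1000 genes were ranked by C1q share, class counts were summed without the C1q genes, and CPM were compared at 25% higher, or lower by the same log2 ratio, with at least 100 UMIs. Tests used edgeR 4.0.16 (TMM, filterByExpr, quasi-likelihood F test, Benjamini-Hochberg) with section as a block, and DESeq2 1.42.0 as an alternative, in R 4.3.3. The scripts were checked on simulated counts. Cross sections that share a litter number come from 1 pregnant mouse, and each section is its own block, with high and low spots of 1 section as the pair. Spots are not replicates. The cross livers are separate embryos.

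Named genes were the 20 higher and 10 lower genes largest in the section nearer 0, all island macrophage genes, up to 5 opposite genes, up to 4 genes per other list by mean ratio, and those of the 20 called in the cross. The members and the 23 lists were chosen with earlier results of these data known, and promoters and motif were chosen after values were seen. A few genes that this rule names are not reported here. Comparisons of E13.5 with E14.5 as stages were not made. Alternatives covered classes, spots, depth, scaling, filters, tools and left-out sections.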

Additional observations from a re-analysis of the deposited data

Results flagged for a closer look

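In the wild-type liver of litter 4 the median log2 ratio of the erythroid progenitor list was -0.1086 and that of the proliferation list -0.1031, each far from the other 3 cross livers. These were 2 of 54 sets of 4 livers examined this way, and chance marks about 1 in 20 such sets.

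The following genes were past the log2 ratio of 0.32 in opposite directions at E13.5 and E14.5, and the difference itself was not tested. The log2 ratio of Mfap4 was 1.3489 at E13.5 and -0.9634 at E14.5, that of Eln 0.5676 and -0.7999, that of Col1a2 0.5324 and -0.5738, that of Fbn2 0.4895 and -0.6896 and that of Dhx35 -0.5516 and 0.4774.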

How the results depend on the processing

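The higher genes past the rule in both livers (136) became 82 with C1qa alone, 14 with spots thinned to 10000 UMIs, 31 at a minimum of 500 UMIs, 543 with no minimum, 47 at 1.5-fold, and 253 to 429 in 1 liver alone. The lower genes (98) became 255 with the outer 10% of spots, 59 with C1qa alone, 34 thinned, 60 within UMI groups, 19 minus adjacent spots, 37 in interior spots, 60 without globins, 6 at 500 UMIs, 544 with no minimum, 7 at 1.5-fold, and 409 to 793 in 1 liver alone. Higher genes made up 58.1% of those past the rule, between 29.2% (thinned) and 87.0% (1.5-fold) under these alternatives.

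Higher and lower calls in the purchased livers (424 and 122) became 33 and 0 with DESeq2, 108 and 13 with upper-quartile factors, 234 and 51 with DESeq2 size factors, 2 and 0 thinned, 134 and 34 minus adjacent spots, 223 and 27 with the outer 10% of spots and 103 and 16 in interior spots. In the cross (12 and 0) they became 4 and 0 with DESeq2, 18 and 3 with DESeq2 size factors, 13 and 2 with no filter, 0 and 1 thinned to 2000 UMIs, 17 and 5 within UMI groups, 13 and 3 within hepatocyte groups, 2 and 1 minus adjacent spots, 0 and 4 over all spots, 5 and 0 in the wild type alone, 10 and 9 in the knockout alone, 24 and 2 with all C1q genes in the wild type, and 2 to 31 and 0 to 17 with 1 section left out. The interior-spot tests were added after seeing the data. Without the block by section, which pairs the high and low spots of a section, 0 genes were called in either direction in the purchased livers (187 at an unadjusted p under 0.05) and 0 in the cross (15), by edgeR. Of 390 alternative values of single genes in the purchased livers 213 moved by less than the SD between the livers. The sign changed in 5: Cxcl10 thinned (0.20), Trf minus adjacent spots (-0.11), and Epor, near 0 throughout, under 3 alternatives. The remaining settings kept these totals within 1.5 times, and counts within lists, which moved more, stand in the report. The causes were not tested. Thinning leaves fewer UMIs per gene, and 5326 genes then reached the UMI minimum. The classes were also redrawn by the thinned share. They rested on a median of 4 C1q UMIs in high and 1 in low spots at E13.5, and 3 and 1 at E14.5. In the cross before thinning, low spots held a median of 0 to 1 C1q UMI. Thinned to 2000 UMIs, the wild type of litter 4 gave 23 high and 221 low spots.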
